A study of Mus musculus with 45 samples.

Results

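Interleukins and tumor necrosis factor were followed across 3 polarization states of macrophages from mice of 3 Famin genotypes. The set was a list of 10 genes (Il1a, Il1b, Il1rn, Il6, Il10, Il12b, Il15, Il18, Il27 and Tnf), of 29307 genes in the count table. Members were matched by symbol to the authors' CPM table (read counts scaled to a common library total), which lists 11900 genes. Of the 10, 8 are in it, and Il6 and Il12b, which are not, were dropped from the members tested by the rule that chose the set. The same 8 passed the filter on low counts and were among the 12905 genes tested, and the counts of Il6 and Il12b, with a fit that had no filter, are given separately.

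Macrophages release these proteins to steer inflammation. Il1a and Il1b encode the agonists IL-1α and IL-1β, which share a receptor that the product of Il1rn, the IL-1 receptor antagonist, occupies without signaling. IL-1β and IL-18 are made as precursors that caspase-1 cuts, and TNF is shed from the cell surface by ADAM17. The Il27 product pairs with EBI3 to form IL-27, the Il12b product is shared by IL-12 and IL-23, IL-15 is presented to lymphocytes on its own receptor chain, and IL-10 restrains macrophage activation. Interferon-γ with LPS is known to induce several of them, whereas IL-4 drives a different program.

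The 45 libraries came from bone marrow-derived macrophages of 15 mice, 5 of each genotype, and each mouse was taken to have given an M0, an M1 and an M2 culture. The mice carried knock-in alleles of the mouse gene Famin (Lacc1) on C57BL/6N: p254I, the residue of the human non-risk allele, p254V, that of the risk allele and of wild-type C57BL/6 mice, or p284R, that of the monogenic disease allele. They were 6 to 10 weeks old littermates from heterozygous breeding. Marrow cells of every group were grown for 6 days in M-CSF and then left unstimulated (M0), given IFN-γ at 50 ng/mL with LPS at 20 ng/mL for 24 h (M1), or given IL-4 at 20 ng/mL for 24 h (M2). The model is a culture of primary macrophages driven by M-CSF.

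Total counts ranged from 17239009 to 43740283 per library, so 1 CPM is between 17.2 and 43.7 reads. The summed macrophage markers Adgre1, Csf1r, Cd68, Itgam and Mertk were between 4677 and 10593 CPM in every library. The summed M1 markers (Nos2, Cxcl9, Gbp2) were at least 9812 CPM in M1 libraries and at most 185 CPM elsewhere, and the M2 markers (Arg1, Retnla, Chil3) were at least 3034 CPM in M2 libraries and at most 124 CPM elsewhere. That 124 CPM was in the M1 library of p254I replicate 5, and the other M1 libraries had at most 19.9 CPM. The M1 marker sum was mostly Gbp2, at 8043 to 9827 CPM in M1 libraries. Cxcl9 ranged there from 978 to 5339 CPM and Nos2 from 3.01 to 149 CPM. Summed T cell, B cell, NK cell and erythroid markers were each at most 0.782 CPM. Mast cell and basophil markers were at most 2.29 CPM and neutrophil markers at most 10.0 CPM. Fibroblast markers ranged from 15.6 to 84.0 CPM in M0, 6.32 to 19.6 in M1 and 8.64 to 30.2 in M2. Dendritic cell markers (Flt3, Zbtb46) summed to at most 1.29 CPM in M0 and M1 and 3.83 to 12.5 CPM in M2. Only Zbtb46 was higher in M2, at a mean of 8.09 CPM against 0.619 CPM in M0. Flt3 had means of 0.0831 CPM in M2 and 0.130 CPM in M0. The M2 library of p284R replicate 3 stood apart from the other M2 libraries of its number, and results that use M2 were also computed without it. CPM below were computed from the counts with TMM-scaled library sizes. A gene was called when edgeR's quasi-likelihood test gave a Benjamini-Hochberg adjusted p under 0.05 over the genes tested.

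The 150 bases just before the annotated start are shown for 4 members with unlike patterns: Tnf and Il1b, which were higher in M1 than in M0, Il1a, which was lower, and Il6, which was near the limit of detection in every state. Each is the gene's sense strand, from RefSeq on GRCm38 (mm10), with matches to a TATA box (TATAAA) or to the NF-kB consensus in capitals.
Tnf, minus strand, chr17:35202008-35202157: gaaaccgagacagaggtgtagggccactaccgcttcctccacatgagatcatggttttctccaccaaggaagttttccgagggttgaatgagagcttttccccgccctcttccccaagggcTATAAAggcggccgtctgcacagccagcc
Il1b, minus strand, chr2:129371140-129371289: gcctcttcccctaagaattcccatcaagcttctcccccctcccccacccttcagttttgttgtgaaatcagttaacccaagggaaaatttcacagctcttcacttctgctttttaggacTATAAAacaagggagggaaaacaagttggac
Il1a, minus strand, chr2:129309973-129310122: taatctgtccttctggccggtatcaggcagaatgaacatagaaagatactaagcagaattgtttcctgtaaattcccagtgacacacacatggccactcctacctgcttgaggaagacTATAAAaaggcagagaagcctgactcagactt
Il6, plus strand, chr5:30012964-30013113: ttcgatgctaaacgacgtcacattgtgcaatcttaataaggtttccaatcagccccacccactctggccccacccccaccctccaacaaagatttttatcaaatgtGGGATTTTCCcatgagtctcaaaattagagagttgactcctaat
A TATA box began at position -29 from the start in Tnf, -31 in Il1b and -32 in Il1a, and Il6 held an NF-kB match at position -44. Of the 10 members, 7 have RefSeq windows of 300 bases, 9 in all because Il1rn has 3. An NF-kB match was found in 1 of the 9 windows, a TATA box on either strand in 5, AP-1 (TGANTCA) in 3, a C/EBP site (TTGCNNAA) in 1, GAGGAA in 3, and neither GAS (TTCNNNGAA) nor ISRE (GAAANNGAAA) in any. Over all 32851 windows of that length, 4.51% held the NF-kB match, 13.6% the TATA box, 7.81% AP-1, 10.8% the C/EBP site, 28.3% GAGGAA, 8.3% GAS and 3.44% ISRE, on either strand and with overlaps allowed. These are matches of letters, and binding was not measured.

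Levels of different genes were compared per length, as RPKM, which is CPM divided by the length of the annotated exons in kilobases. In M0 the order of mean RPKM was Il1rn (19.3 ± 9.17, SD, n = 15), Il15 (14.8 ± 2.84), Tnf (9.24 ± 3.27), Il18 (8.22 ± 1.75), Il10 (3.26 ± 1.26), Il1b (1.15 ± 0.756), Il27 (0.654 ± 0.300) and Il1a (0.645 ± 0.457). The ranges of all neighbors in this order overlapped. In M1 the order was Tnf (35.8 ± 17.9), Il15 (31.0 ± 3.34), Il1rn (29.0 ± 9.14), Il27 (17.5 ± 3.24), Il18 (17.4 ± 2.25), Il10 (6.03 ± 1.96), Il1b (2.69 ± 1.20) and Il1a (0.376 ± 0.155). There the ranges of Il18 and Il10 were apart, as were those of Il1b and Il1a, and the other neighbors overlapped. In M2 Il1rn led at 30.6 ± 25.1 RPKM, followed by Tnf (6.86 ± 1.98), Il15 (5.67 ± 0.545) and Il18 (2.59 ± 0.838), and Il10, Il1a, Il27 and Il1b had means from 0.319 to 0.524. Only Il15 and Il18 were neighbors with separate ranges in M2 among these 8. The antagonist's transcript exceeded both agonists' in each of the 45 libraries: the RPKM ratio of Il1rn to Il1b had a median of 19.1 in M0 (4.7 to 84.9), 11.7 in M1 (4.92 to 20.7) and 65.7 in M2 (48.1 to 252). The ratio of Il1rn to Il1a had a median of 29.3 in M0, 80.1 in M1 and 59.5 in M2, and was never under 14.7. The annotated exons of Il1rn sum to 5535 bases over several starts, more than any other member's, which lowers its RPKM if a shorter transcript was the one made.

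**Figure D1:**
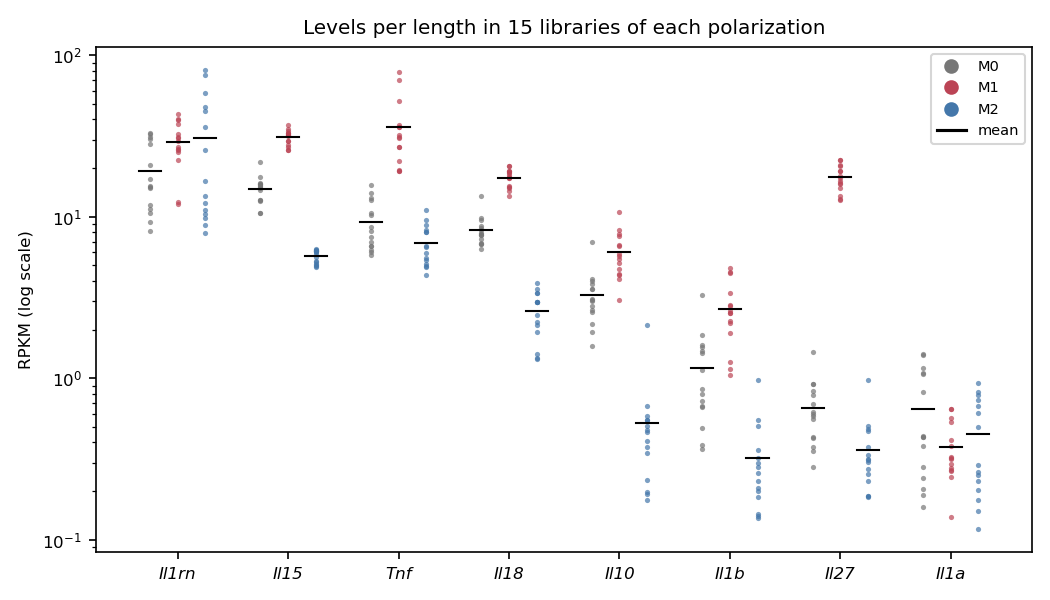
RPKM on a log axis for the 8 members that were tested, ordered by their mean in M0. Each point is 1 of 15 libraries of a polarization state and the black bars are means. Il1rn led in M0 and M2 and Tnf in M1, and Il27 moved from 0.654 RPKM in M0 to 17.5 RPKM in M1.

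The question of the M1 and M2 comparisons is how each cytokine gene responds to the polarizing stimulus. In M1 against M0, averaged over genotypes, 6 of the 8 members rose (Il1b, Il10, Il15, Il18, Il27 and Tnf), Il1a fell, and Il1rn did not pass the test. Of all genes tested, 37% were called higher and 40.3% lower in that comparison. In M2 against M0 none of the 8 rose and 6 fell (Il1b, Il10, Il15, Il18, Il27 and Tnf), where 36.8% of all genes were called higher and 39.6% lower. In M1 against M2 the same 6 named genes were higher and none was lower, where 39% of all genes were called higher and 40.1% lower. The median log2 difference of the 8 was 1.08 in M1 against M0, -1.13 in M2 against M0 and 2.60 in M1 against M2, beside medians of -0.027, -0.0251 and -0.00894 over all genes tested. The first pair of comparisons share the M0 libraries. For members whose states are described below as apart, the share of all genes with such a separation is not given here. In bulk RNA, fewer cells that make a transcript and less transcript per cell cannot be told apart.

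**Figure D2:**
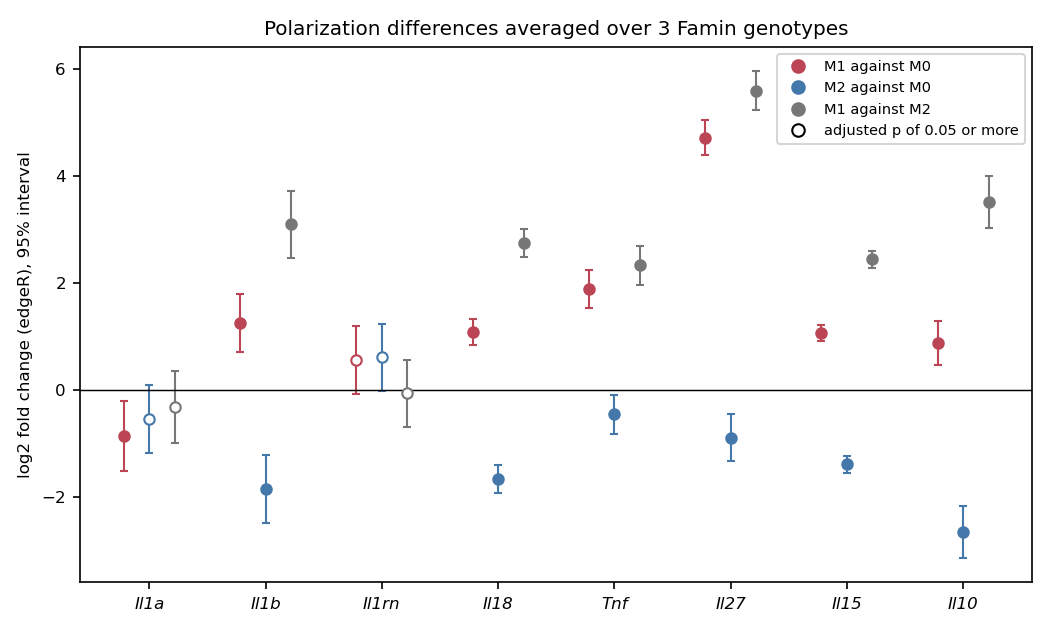
Log2 fold changes averaged over genotypes, with 95% intervals from edgeR's fit, for M1 against M0 (red), M2 against M0 (blue) and M1 against M2 (gray). Filled points passed the adjusted p threshold of 0.05. Il27 had the tallest M1 points, at 4.72 against M0 and 5.60 against M2, and Il1a and Il1rn are the members whose M1 and M2 points lie on the same side of 0.

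Il1b (ENSMUSG00000027398, chromosome 2 from 129364570 to 129371139) had a lowest, median and highest level of 0.693, 1.63 and 6.22 CPM over the 15 M0 libraries, 1.998, 4.86 and 9.15 CPM in M1, and 0.259, 0.495 and 1.85 CPM in M2. M1 exceeded M0 in 14 of 15 mice and M2 lay below M0 in 14 of 15, and no M2 library reached an M1 library. The log2 fold change was 1.26 in M1 (SE 0.27, adjusted p = 5.58e-05) and -1.85 in M2 (SE 0.31, adjusted p = 1.87e-06). Il1a (ENSMUSG00000027399, chromosome 2 from 129299610 to 129309972) went from 0.313, 0.857 and 2.80 CPM in M0 to 0.274, 0.633 and 1.28 CPM in M1 and 0.228, 0.575 and 1.84 CPM in M2. Its M1 level was lower in 10 of 15 mice and higher in 5, and the ranges overlapped throughout. The fall in M1 had a log2 difference of -0.85 (SE 0.32, adjusted p = 0.0169). It passed under 7 of 9 other settings with an adjusted p between 0.0106 and 0.174, and it was lost, with an adjusted p up to 0.0633, when replicate 2 of any genotype or replicate 1 of p284R was left out. In M2 the difference of Il1a was -0.54 (SE 0.32, adjusted p = 0.118). Il1a and Il1b each overlap a gene on the opposite strand (Gm14023 and Il1bos), and whether the counting used the strand is not given in the sources used here.

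Il1rn (ENSMUSG00000026981, chromosome 2 from 24336853 to 24351494), which encodes the antagonist, was at 44.99, 85.5 and 182 CPM in M0, 66.7, 164 and 239 CPM in M1, and 43.8, 91.8 and 448 CPM in M2 (lowest, median and highest). M1 exceeded M0 in 12 of 15 mice, whereas M2 exceeded M0 in 8 and lay below it in 7. The log2 fold change in M1 was 0.57 (SE 0.31, adjusted p = 0.0917), and with the mouse as a replicate block it was 0.83 (SE 0.29, adjusted p = 0.0122). The adjusted p over 10 other settings lay between 0.0122 and 0.128, with 3 under the threshold, and leaving out p254I replicate 2 or p284R replicate 2 brought it to 0.0366 and 0.0411. With the block, 80.2% of all genes were called in M1 against M0. In M2 the difference was 0.62 (SE 0.31, adjusted p = 0.0673), and 0.56 (adjusted p = 0.108) without the p284R library that stood apart, where Il1rn was at 321 CPM against 54.3 and 49.2 CPM in the other M2 libraries of replicate 3. M1 and M2 differed by -0.05 (95% interval -0.68 to 0.57, adjusted p = 0.886).

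Il18 (ENSMUSG00000039217, chromosome 9 from 50554827 to 50581840) had no overlap between the 3 states, although M0 and M1 nearly met. Its lowest, median and highest levels were 6.47, 8.01 and 13.8 CPM in M0, 13.8, 18.2 and 21.2 CPM in M1, and 1.35, 3.03 and 4.02 CPM in M2. The log2 fold change was 1.09 in M1 (SE 0.12, adjusted p = 6.58e-11) and -1.66 in M2 (SE 0.13, adjusted p = 7.73e-15). The top M0 value and the bottom M1 value of Il18 were 13.76 and 13.80 CPM, and M1 exceeded M0 in all 15 mice. Il18 overlaps Bco2 and Tex12 on the opposite strand.

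Tnf (ENSMUSG00000024401, chromosome 17 from 35199381 to 35202007) was at 9.43, 13.3 and 25.8 CPM in M0, 31.5, 50.8 and 129 CPM in M1, and 7.09, 10.6 and 18.02 CPM in M2. Every M1 library exceeded every M0 and every M2 library, and the share of all genes with that order is not given here. The log2 fold change was 1.89 in M1 (SE 0.17, adjusted p = 1.19e-12), and M1 exceeded M2 by 2.34 (SE 0.18, adjusted p = 3.97e-15). The M2 level lay below M0 in 11 of 15 mice, with a log2 difference of -0.45 (SE 0.18, adjusted p = 0.0214). With the mouse as a replicate block it was -0.37 (SE 0.18, adjusted p = 0.0552), in a fit that called 79.7% of all genes. Its adjusted p ranged from 0.0113 to 0.0599 over 10 other settings, 8 of them under the threshold, and from 0.0119 to 0.0936 with each mouse left out. The call was lost without replicate 5 of any genotype and without replicate 4 of p254V or p284R.

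Il27 (ENSMUSG00000044701, chromosome 7 from 126589010 to 126594941) rose the most of the 8 members in M1. Its lowest, median and highest levels were 0.288, 0.615 and 1.49 CPM in M0, 12.9, 17.7 and 22.9 CPM in M1, and 0.187, 0.316 and 0.989 CPM in M2. The M1 libraries lay above all others, at 26.4-fold the M0 level (log2 fold change 4.72, SE 0.16, adjusted p = 8.37e-27). M2 lay below M0 in all 15 mice although the ranges overlapped (log2 fold change -0.88, SE 0.21, adjusted p = 0.000318). Il27 overlaps Apobr on the opposite strand. Ebi3, which encodes its partner subunit, was at 48.4 ± 9.13 CPM in M0, 45.03 ± 7.45 in M1 and 23.2 ± 5.49 in M2 (SD, n = 15). It differed by -0.10 in M1 (SE 0.10, adjusted p = 0.332) and fell by 1.06 on the log2 scale in M2 (SE 0.10, adjusted p = 1.63e-12). The partners of the Il12b product, Il12a and Il23a, had no library above 0.075 CPM and were not tested.

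Il15 (ENSMUSG00000031712, chromosome 8 from 82331632 to 82403222) was the member with the tightest groups: 23.8, 34.5 and 49.1 CPM in M0, 58.1, 72.7 and 83.8 CPM in M1, and 11.01, 13.2 and 14.3 CPM in M2 (lowest, median and highest). No library of a state overlapped another state. The log2 fold change was 1.07 in M1 (SE 0.07, adjusted p = 7.82e-17) and -1.38 in M2 (SE 0.08, adjusted p = 1.52e-19). Il10 (ENSMUSG00000016529, chromosome 1 from 131019845 to 131024974) was at 2.06, 4.02 and 9.11 CPM in M0, 4.01, 7.51 and 14.1 CPM in M1, and 0.229, 0.608 and 2.78 CPM in M2. Each mouse had its highest Il10 level in M1 and its lowest in M2, and M1 and M2 did not overlap. The log2 fold change was 0.88 in M1 (SE 0.20, adjusted p = 0.000132) and -2.65 in M2 (SE 0.24, adjusted p = 9.57e-13). The fall of Il10 in M2 was 6.26-fold, whereas that of Tnf was 1.36-fold. In M0 the library of p254I replicate 4 was the highest of the 15 for Il1b, Il10, Il15, Il18 and Il27, and leaving that mouse out kept each of their calls in M1 and in M2.

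**Figure D3:**
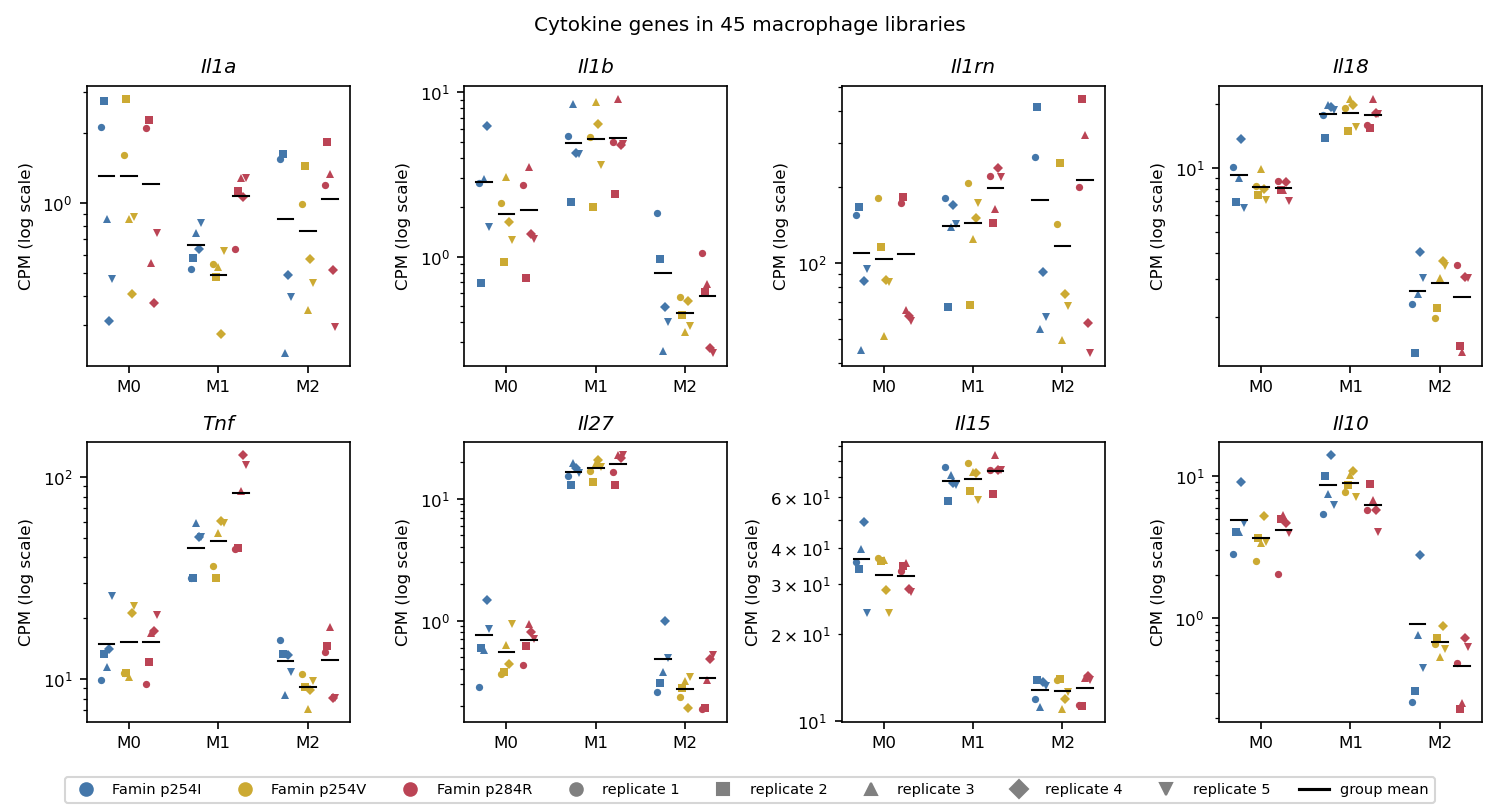
CPM on a log axis in each of the 45 libraries for the 8 members tested. Colors are Famin genotypes, marker shapes are replicate numbers and black bars are means of 5 libraries. Il15, Il18, Il27 and Tnf in M1 lie above every M0 library, and the share of all genes that do so is not given here. In M0 of Il1a and M1 of Il1b libraries of the same shape lie together across colors.

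Il6 and Il12b, whose proteins are classic products of activated macrophages, were close to undetected. Over 15 libraries Il6 had 9 counts in M0, 37 in M1 and 8 in M2, and no library held more than 7 counts or 0.298 CPM. Il12b had 17, 36 and 11 counts in the same order, with at most 7 counts in a library. Most libraries of both genes were thus at or under 3 counts, the limit that a count of 0 allows, so no fold change is drawn from them. In a fit with no filter on low counts, the adjusted p of M1 against M0 was 0.00149 for Il6 and 0.0847 for Il12b, and that of M1 against M2 was 0.00271 and 0.0164. RNA was taken at a single time, so levels at other times after the stimulus were not measured.

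Genes that receive, cut or limit these cytokines were read against the same background, 37% of all genes called higher and 40.3% lower in M1 against M0, and 36.8% and 39.6% in M2 against M0. Of 17 receptor chains, all of which were tested, 8 rose and 7 fell in M1 against M0, and 6 rose and 6 fell in M2 against M0, counts near those shares. Il12rb1, a chain of the IL-12 and IL-23 receptors, went from 1.31 ± 0.548 CPM in M0 to 263 ± 15.1 CPM in M1 (SD, n = 15), a log2 difference of 7.68 (SE 0.15, adjusted p = 1.53e-34). Il15ra, which presents IL-15, rose by 2.91 in M1 (SE 0.10, adjusted p = 1.1e-26) and fell by 0.70 in M2 (SE 0.11, adjusted p = 1.81e-07), the same directions as Il15. Il10ra moved likewise, by 1.18 in M1 (SE 0.07) and -1.14 in M2 (SE 0.07). Other chains of these receptors did not all follow the ligand. Il10rb had 243 ± 17.1 CPM in M0, 158 ± 9.23 in M1 and 213 ± 18.5 in M2 (SD, n = 15). Il2rg, a further chain of the IL-15 receptor, was at 60.3 ± 10.4, 422 ± 76.2 and 92.7 ± 18.8 CPM in the same order.

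Of the IL-1 receptor genes, Il1r1 and Il1rap moved opposite to Il1b and Il1r2 moved with it. Il1r1, the signaling chain, had 1.40 ± 0.356 CPM in M0, 0.503 ± 0.270 in M1 and 7.45 ± 3.15 in M2, which is -1.51 in M1 (SE 0.23, adjusted p = 1.23e-07) and 2.42 in M2 (SE 0.19, adjusted p = 8.11e-15) on the log2 scale. Il1rap, the accessory chain, fell by 1.25 in M1 (SE 0.06) and rose by 0.59 in M2 (SE 0.06). Il1r2, the decoy receptor, rose by 1.68 in M1 (SE 0.28) and fell by 0.93 in M2 (SE 0.35), at under 2.6 CPM in every library. Il27ra fell in M1 by 0.91 and rose in M2 by 1.96. Il18r1 fell in M1 by 1.41 and rose in M2 by 2.69, but its levels were near the limit of detection. It had 0.165 ± 0.0771 CPM in M0, 0.0605 ± 0.0492 in M1 and 1.07 ± 0.521 in M2 (SD, n = 15). Il18rap, the other IL-18 receptor chain, was at 4.87 ± 1.92, 4.55 ± 1.29 and 5.38 ± 1.66 CPM in the same order. Of the TNF receptors, Tnfrsf1a rose by 1.13 in M1 and Tnfrsf1b fell by 1.12, and in M2 they differed by -0.04 (adjusted p = 0.208) and -0.13 (adjusted p = 0.0888).

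Of 7 genes for processing or binding, 5 rose and 2 fell in M1, and 3 rose and 4 fell in M2, beside 37% and 40.3% of all genes in M1 and 36.8% and 39.6% in M2. Casp1 rose by 1.83 in M1 (SE 0.06, adjusted p = 1.29e-26), Casp4 by 2.02 and Gsdmd, which forms the pore of release, by 1.29. Il18bp, a soluble protein that binds IL-18, went from 41.7 ± 21.0 CPM in M0 to 470 ± 56.7 in M1 and 21.1 ± 7.60 in M2 (log2 fold change 3.5 in M1, SE 0.22, adjusted p = 9.04e-18). Adam17, the sheddase of TNF, fell by 0.38 in M1 (SE 0.05), its partner Rhbdf2 rose by 1.25 (SE 0.04), and its inhibitor Timp3 fell by 1.08 (SE 0.27). Of 6 genes for decay of cytokine mRNA, 0 rose and 2 fell in M1 (Zfp36l1 by 0.57 and Rc3h1 by 0.20), and 1 rose and 4 fell in M2, against the same shares of all genes. Zfp36, which targets Tnf mRNA, differed by 0.07 in M1 (SE 0.08, adjusted p = 0.408). Of 17 other interleukin genes only Il7 and Il16 passed the filter: Il7 rose by 1.01 in M1 and 1.52 in M2, and Il16 fell by 0.34 and 2.71.

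The comparisons of Famin genotypes ask whether the coding variant alters the state of the cells. With no term for the replicate number, none of the 8 members was called in any genotype comparison. In M1, where 0.263% of all genes were called between p284R and p254I, Tnf was the member with the smallest p. It was at 31.5, 31.7, 59.2, 50.4 and 50.8 CPM in p254I replicates 1 to 5, at 36.4, 31.5, 52.9, 60.6 and 59.3 CPM in p254V, and at 44.01, 44.5, 85.2, 129 and 115 CPM in p284R. The p284R library was the highest of its replicate number in all 5, by 1.40- to 2.55-fold over p254I and 1.21- to 2.12-fold over p254V, although the groups overlapped. The share of all genes with that order is not given here. The means were 44.7 ± 12.5, 48.1 ± 13.4 and 83.4 ± 39.0 CPM (SD, n = 5). Against p254I the log2 fold change was 0.90 (SE 0.29, unadjusted p = 0.00365, adjusted p = 0.324). The summed M1 markers were 9812 to 11910 CPM in p254I, 10430 to 12070 in p254V and 11610 to 14570 in p284R M1 libraries, and their part in the result was not tested.

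In M0 and M1, libraries that carry the same number shifted together around their group means, so the number was also fitted as a replicate block. With that block Tnf was called between p284R and p254I in M1 (log2 fold change 0.82, SE 0.17, adjusted p = 0.00882), in a fit that called 2.66% of all genes. Over 10 other settings its adjusted p ranged from 0.00882 to 0.809, and the block was the only one under the threshold. When each replicate number was left out of the blocked fit in turn, the log2 fold change stayed between 0.67 and 0.90, and the adjusted p was 0.0215, 0.0368 and 0.00597 without numbers 1, 2 and 3, 0.0947 without 4 and 0.13 without 5. Against p254V, where 0.0775% of all genes were called without the block, the difference of Tnf was 0.79 (SE 0.29, adjusted p = 0.59), and with the block 0.72 (SE 0.17, adjusted p = 0.0219), where 2.52% of all genes were called. That call was lost without number 2, 4 or 5, at an adjusted p of 0.0789, 0.123 and 0.167. Between p254V and p254I in M1, where 0% of all genes were called, Tnf differed by 0.11 without the block (95% interval -0.48 to 0.69, adjusted p = 1). With the block it differed by 0.10 (SE 0.17, adjusted p = 1), in a fit that called 0 genes.

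Il1a in M1 was at 0.524, 0.582, 0.748, 0.639 and 0.821 CPM in p254I, 0.550, 0.481, 0.533, 0.274 and 0.6246 CPM in p254V, and 0.633, 1.12, 1.28, 1.06 and 1.28 CPM in p284R, replicates 1 to 5. Every p284R library exceeded every p254V library, and p284R was the highest of its number in all 5, while the p284R and p254I groups overlapped. The nearest values, 0.633 CPM in p284R replicate 1 and 0.6246 CPM in p254V replicate 5, rest on 16 and 18 counts. The shares of all genes with such a separation or such an order in M1 are not given here. Against p254V the log2 fold change was 1.09 (SE 0.59, adjusted p = 0.888), and with the block 1.10 (SE 0.28, adjusted p = 0.0311). The block was the only one of 9 other settings under the threshold, the largest adjusted p being 0.933, and the blocked call was lost without number 2, 4 or 5 (adjusted p = 0.142, 0.199 and 0.144). Against p254I the blocked difference was 0.70 (SE 0.27, adjusted p = 0.183). Il1a rests on 288 counts over the 15 M1 libraries. Il1rn was likewise highest in p284R at every number in M1, by 1.18- to 2.17-fold over p254I, with a blocked adjusted p of 0.425. Il10 was lower in p284R than in p254I at 4 of 5 numbers, at means of 6.21 ± 1.73 and 8.62 ± 3.49 CPM, with a log2 difference of -0.47 (SE 0.34, adjusted p = 0.915, or 0.317 with the block). It was -0.23 without p254I replicate 4, which had 14.1 CPM of Il10, and -0.20 in the blocked fit without number 4. Il1b, Il15, Il18 and Il27 differed between p284R and p254I in M1 by -0.02 to 0.23.

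**Figure D4:**
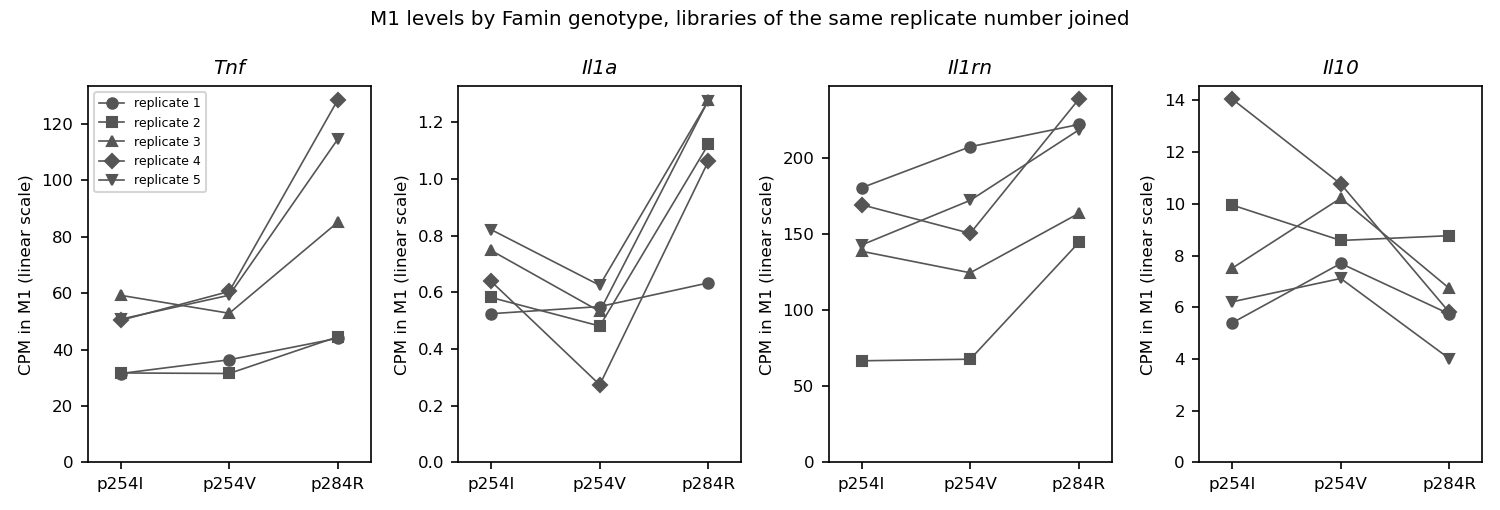
CPM in M1 for 4 members, on linear axes from 0, with a line for each replicate number across the Famin genotypes. Tnf, Il1a and Il1rn end highest in p284R on every line, and the steepest lines of Tnf are replicates 4 and 5. The share of all genes that end highest in p284R on every line is not given here.

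**Figure D5:**
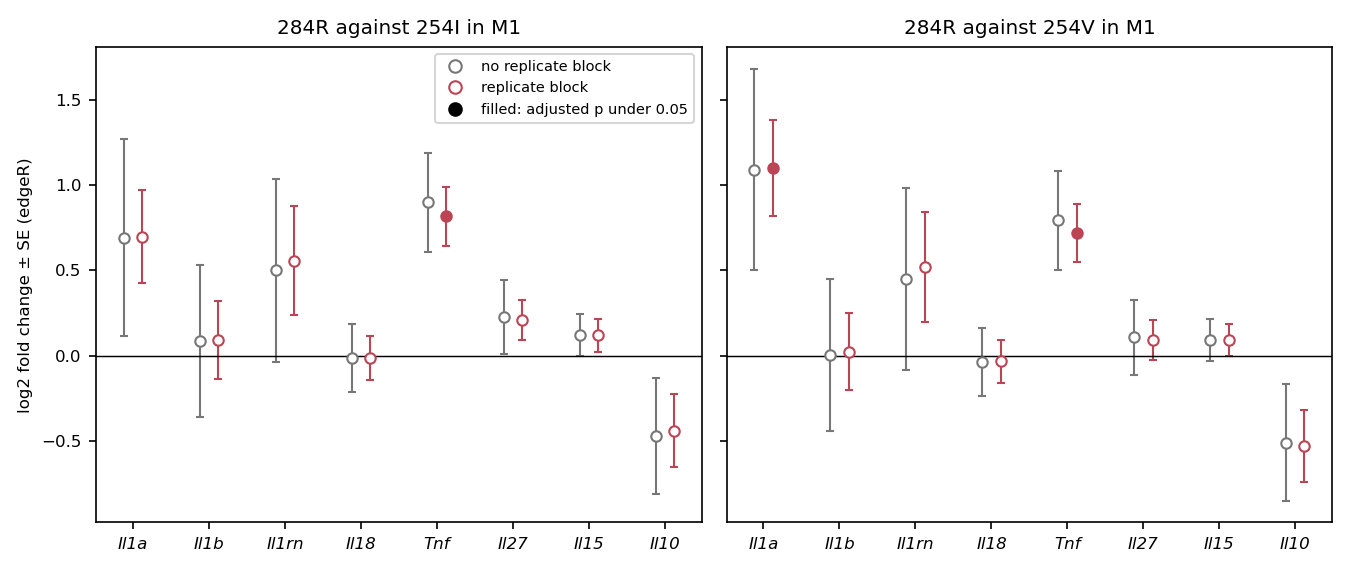
Log2 fold changes ± SE in M1 for p284R against p254I (left) and against p254V (right), from the fit without (gray) and with (red) the replicate number as a block. Filled points had an adjusted p under 0.05. Only Tnf, in both panels, and Il1a, against p254V, are filled, and each only with the block.

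In M0 the members did not pass between genotypes, and 0% of all genes were called for p284R or p254V against p254I. At an unadjusted p under 0.05 none of the 8 passed in either comparison, with 140 and 231 of all genes, and limma-voom called 0 genes and DESeq2 1 gene in each. Tnf in M0 was at 9.89, 13.3, 11.4, 14.2 and 25.8 CPM in p254I, 10.8, 10.7, 10.2, 21.2 and 23.0 CPM in p254V, and 9.43, 12.2, 16.9, 17.4 and 20.8 CPM in p284R. The groups overlapped fully, and the difference of p284R from p254I was 0.04 with a 95% interval from -0.58 to 0.65. The M1 rise of Tnf was larger in p284R than in p254I by 0.86 on the log2 scale (SE 0.42, unadjusted p = 0.0456, adjusted p = 1), and that of p254V by 0.07 (SE 0.42, adjusted p = 1). In each of these tests of the M1 response 0% of all genes were called, at 356 and 111 genes with an unadjusted p under 0.05, and DESeq2 and limma-voom called 0 genes. In M1, p254V and p254I differed by -0.40 to 0.12 over the 8 members, with 120 genes at an unadjusted p under 0.05 and DESeq2 calling 3.

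In M2, 0.00775% of all genes were called for p284R against p254I and 0% for p254V. None of the 8 members passed. Il10 was at 0.258, 0.309, 0.761, 2.78 and 0.448 CPM in p254I and 0.487, 0.229, 0.252, 0.726 and 0.629 CPM in p284R, a log2 difference of -1.03 (SE 0.48, unadjusted p = 0.0396, adjusted p = 1). The p254I value of replicate 4 stood far above all others, and without that mouse the difference was 0.076. Il27 in p254V was at 0.236, 0.281, 0.316, 0.192 and 0.342 CPM against 0.258, 0.309, 0.380, 0.989 and 0.497 CPM in p254I, lower at every number, a log2 difference of -0.85 (SE 0.41, unadjusted p = 0.0473, adjusted p = 0.999). Without p254I replicate 4 that difference of Il27 was -0.35. Tnf in M2, at ratios of 0.675 to 0.905, and Il10 in M0, at 0.577 to 0.902, were also lower in p254V than in p254I at every number. The share of all genes with that order is not given here. Over all genes, 148 had an unadjusted p under 0.05 for p284R and 329 for p254V, where DESeq2 called 2 genes in each and limma-voom 1 and 0.

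The replicate number, whose meaning is not given in the sources used here, went with the level of several members. In M0 it accounted for 95.8% of the variation of Il1a among the 15 libraries, beside a median of 61.4% over all genes tested, and genotype for 0.303%. All 3 libraries of number 2 had 2.27 to 2.80 CPM of Il1a and all 3 of number 4 had 0.313 to 0.407 CPM. In M1 the number accounted for 94.9% of the variation of Il1b, beside a median of 50.2%: number 2 had 1.998 to 2.41 CPM and number 3 had 8.55 to 9.15 CPM in the 3 genotypes. Il1a differed in M1, with 17.8% for the number and 67.8% for the genotype, beside a genotype median of 10.3% over all genes tested. Other members also lay below the median for the number. In M0 they were Il15 (55.3%), Il18 (52.5%) and Il27 (50.4%), and in M1 Il10 (46.2%). In M2, at a median of 48%, they were Il10 (47.5%), Il27 (40.1%), Tnf (20.9%) and Il15 (17.5%). The order of the numbers was not shared by the members, since in M0 number 3 had the lowest mean of Il1rn (53.8 CPM) and the highest mean of Il1b (3.19 CPM). Summed neutrophil markers (Ly6g, Elane, Mpo, Camp) in M0 were 7.26 to 10.0 CPM in number 2 and at most 2.97 CPM in numbers 3, 4 and 5, and their part in these levels was not tested.

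Genes whose profile over the 45 libraries was most like each member's were listed by Pearson's r of log2 CPM, as a description, since the points share mice and the M1 and M2 contrasts dominate them. Il27 was most like Lrrc4 (r = 0.996), Batf2 (0.993) and Stard3nl (0.993), and Il15 like Aftph (0.989), Slfn8 (0.985) and Ms4a6c (0.983). Il18 went with Lst1 (0.982), Fer and Fez2, Tnf with Agfg1 (0.974), Fam241a and Soat2, and Il10 with Plod1 (0.965), Ptpn18 and Fgd2. Il1b was closest to Stk40 (0.931), whereas the best matches were weaker for Il1a (Scaf11, 0.786) and Il1rn (Pilra, 0.771).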

How the data were processed

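RNA of 45 macrophage cultures was sequenced, and the authors deposited a table of counts per Ensembl gene (29307 genes, not normalized) and a table of CPM for 11900 genes. Reads recovered from the CPM table were whole within 0.01 for 100% of values and equal to the counts. Tools named in the submitters' processing notes are FastQC, Trim Galore, HISAT2 and limma, with mm10. The counting tool, its annotation and its use of strand are not given in the sources used here. The labels gave each sample's group and number, and cultures sharing both genotype and number were treated as coming from 1 mouse. P-values measure the spread between these cultures. The main fit held no term for the mouse, so the cultures of 1 mouse entered it as independent. With the mouse as a block, the polarization calls that changed among the members were those of Il1rn in M1 and Tnf in M2. No column was without a sample.

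The versions used were edgeR 4.0.16, limma 3.58.1, DESeq2 1.42.0 and R 4.3.3. A low-count filter (filterByExpr by group) preceded TMM scaling (factors 0.939 to 1.1), and edgeR's robust quasi-likelihood model took all 45 libraries in 9 groups. Polarizations were compared as means over genotypes, genotypes within a state, and M1 responses as interactions. Adjusted p-values are Benjamini-Hochberg over the 12905 genes tested, called under 0.05, and this edgeR test is meant wherever no other is named. The fit was run on simulated counts drawn independently for each library. They held no effect of mouse or replicate number, so they do not test the fit under the pairing described below. RPKM used the summed exons of GENCODE gene models on mm10, whose symbols matched 29081 identifiers.

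Deviations from group means of libraries with the same number, over 9522 genes, were compared between genotypes. The correlation ran from 0.122 to 0.864 in M0 and from 0.283 to 0.871 in M1, above 0.1 in every pair, but from -0.419 to 0.784 in M2, where 13 of 15 pairs passed. Within a mouse 38 of 45 pairs passed. The number thus served as a block for genotypes, and the mouse, as read from the labels, as a block for states. The block for genotypes was fitted in M2 as well as in M0 and M1, although not every M2 pair passed. Named genes are every member, the listed partner, receptor, processing, decay and ligand genes, and the 3 genes most like each member. Members and lists were chosen with earlier results of these data known. Alternatives were DESeq2's size factors and Wald test, limma-voom with and without the mouse as a random block, the replicate block, no low-count filter, at least 10 counts in every library, only the libraries compared, and each of 15 mice left out. The reads of the CPM table, the omission of an M2 library that stood apart, and the blocked fit without each replicate number were chosen after seeing the data.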

Additional observations from a re-analysis of the deposited data

Results flagged for a closer look

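Within the 72 groups of 5 libraries that the 8 members form, 3 held a library set far from the rest of its group by Dixon's criterion (critical value 0.71), and chance flags about 1 group in 20. Il10 in M0 of p254I replicate 4 was at 9.11 CPM, with the nearest other library of its group at 4.64 CPM. Il10 in M2 of the same mouse was at 2.78 CPM, with the nearest at 0.761 CPM. Tnf in M0 of p254I replicate 5 was at 25.8 CPM, with the nearest at 14.2 CPM.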

How the results depend on the processing

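With at least 10 counts in every library, where Il15, Il18, Il1rn and Tnf alone were tested, 3 members were called in M1 against M0, 3 in M2 against M0 and 3 in M1 against M2, and with each mouse left out between 6 and 7, between 5 and 6, and 6 in every fit. With the replicate block, 1 member was called between p284R and p254I in M1 and 2 between p284R and p254V, and with each replicate number left out of that block between 0 and 1 and between 0 and 2. The block changed no other genotype call of a member and, for polarization, those of Il1rn in M1 and Tnf in M2 given above. Il1rn in M1 against M2 turned positive at 0.0134 without the p284R library that stood apart, 0.303 both with limma-voom and with its random mouse effect, and 0.341 with the replicate block, and ranged from -0.16 to 0.21 with each mouse left out. Tnf in p284R against p254I in M2 turned negative at -0.15 without that library, -0.034 with limma-voom and -0.045 with its random effect, and ranged from -0.14 to 0.15 with each mouse left out. With each mouse left out Tnf in p284R against p254I in M0 ranged from -0.098 to 0.33, its M1 response in p254V from -0.19 to 0.28, and Il10 in p284R against p254I in M2 from -1.26 to 0.076. The cause of these reversals was not tested, and none of the values passed the threshold. Of 873 values of single genes under other settings, 820 kept their direction and their side of the threshold. Over all genes, p284R against p254I in M1 called 34 genes, but 11 with limma-voom, 7 with its random effect, 64 with DESeq2, 343 with the replicate block, 1 with the libraries compared alone and 0 to 109 with each mouse left out. Against p254V it called 10, but 0, 0, 26, 325, 0 and 0 to 65 in the same order, and 4 with no filter. Counting error limits Il1a in M1 (288 counts over 15 libraries) and, in M2, Il10 (286), Il1b (242) and Il27 (150).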
